A study of Homo sapiens with 3 samples.

Results

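The 5′ end of human 28S ribosomal RNA, from C1 to A435, forms the core of its domain I, up to the start of expansion segment 7, a large insertion of vertebrate rRNA. Its nucleotides were chosen by position alone, as every adenosine (A) and cytidine (C) numbered within that stretch. This gave 226 nucleotides, 107 A and 119 C, of the 2492 A and C in the 5070 nt of 28S rRNA. RefSeq's table for GRCh38.p14 holds a 28S gene of this length, RNA28SN5, at 113348 to 118417 of a sequence not placed on a chromosome. RNA28SN1, RNA28SN2 and RNA28SN3 are listed under chromosome 21 and RNA28SN4 under chromosome 22. Reads cannot be assigned to one of these near-identical copies, so each position describes their pool, within an exon that is the whole rRNA.

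The RNA came from HEK293 cells, a human embryonic kidney line, which the growth protocol names HEK293T/17, a clone of the T antigen-expressing form. All 3 libraries followed a 30 min incubation. DMSO was the solvent control, cycloheximide (10 µM) blocks the elongation step of protein synthesis from the ribosome's E site, in another domain of 28S rRNA, and RiboBright (10 µM) is a probe whose structure is not given by the labels. The dose of dimethyl sulfate is not stated in them. There was 1 library for each treatment, so no difference has a replicate check and no p-value is given.

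Domain I folds together with the short rRNA of the RNA5-8SN genes, which is cut from the same precursor. The 5′ end of 28S rRNA pairs with the 3′ end of that rRNA. Pairing of other parts of the core with it was not mapped here. The domain surrounds the lower part of the tunnel through which the nascent protein leaves the large subunit. Dimethyl sulfate adds a methyl group to A and C on the edge used for base pairing, where no partner or protein covers it, and the modified base is misread during reverse transcription. A high mutation signal is therefore read as an exposed A or C. No library without the reagent was analysed here, so mutations from other sources were not separated. From the values, 1 is the level of a highly reactive nucleotide of its base in its library. A signal at or above the 75th percentile of DMSO over all A and C of 28S rRNA, 0.240, is called strong below, with the treated libraries first scaled to DMSO by their medians. In the domain I core A395 lay just above that level in DMSO, at 0.247, and C181 just below it, at 0.234.

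Stretches of the core are shown because the results turn on them. They run 5′ to 3′ as DNA letters from the deposited position names, and capitals mark A and C that were strong in DMSO. The first is the start of the rRNA, which held no strong position, and the second is the 50 nt with the most.
nt 1 to 50: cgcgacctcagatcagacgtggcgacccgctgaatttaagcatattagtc
nt 351 to 400: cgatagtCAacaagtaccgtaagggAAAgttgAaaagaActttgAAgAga
The next hold the highest cytidine signals, at C92 and C170, and the adenosine A163.
nt 77 to 107: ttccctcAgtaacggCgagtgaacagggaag
nt 148 to 185: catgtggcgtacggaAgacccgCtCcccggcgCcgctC
The last hold a GC-rich hairpin-like stretch, a cluster around C340, and A408 with A410, which were higher in RiboBright than in both other libraries.
nt 120 to 150: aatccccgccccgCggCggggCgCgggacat
nt 331 to 360: gctaaatACCggcACgAgaccgatagtCAa
nt 393 to 423: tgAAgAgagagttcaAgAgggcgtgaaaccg
The stretches around C92, C170 and C340 and the GC-rich one were chosen after their values were seen.

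Nearly all of the core was measured. DMSO and cycloheximide had a value at 222 of the 226 A and C (98.2%), and RiboBright at 216 (95.6%), against 88.2%, 90.1% and 71.6% in the rest of 28S rRNA. The 4 nucleotides without any value, C1, C3, A5 and C6, lie at the very 5′ end. RiboBright also had none at C7, C9 and A10 and at A433, A434 and A435. Values of exactly 0 numbered 3 in DMSO, 4 in cycloheximide and 15 in RiboBright. Of the 15 RiboBright zeros, 12 were cytidines and 12 had a value above 0 in both other libraries. The highest DMSO signal among them was 0.227, so no position that was strong in DMSO was listed at 0. The files hold no read counts, so the depth is unknown and gaps and zeros are its only trace.

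**Figure D1:**
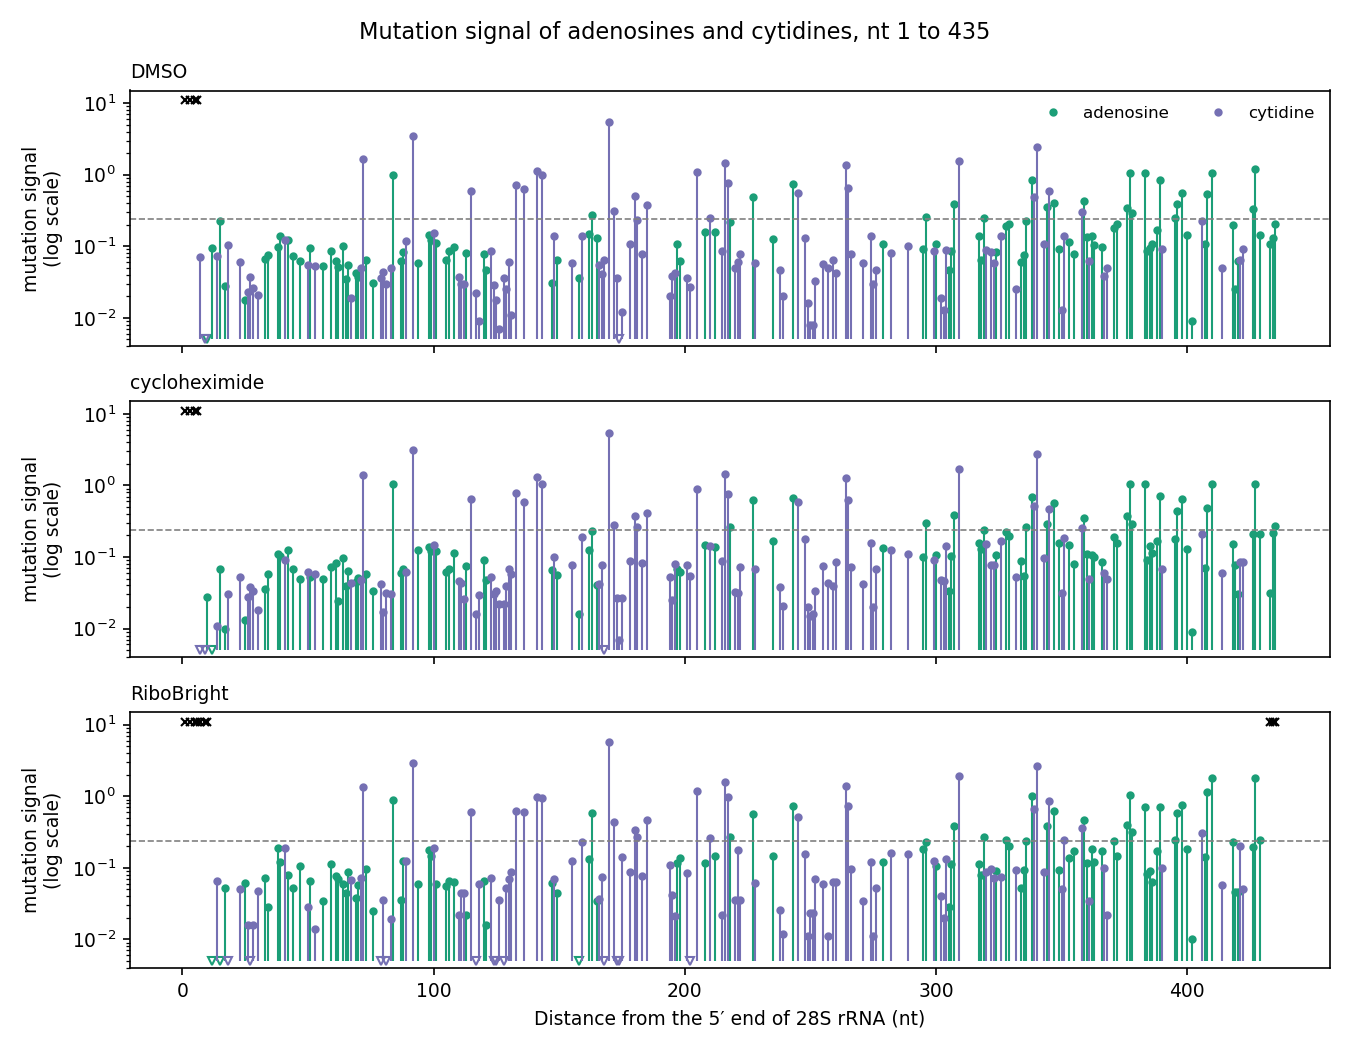
Mutation signal (log scale) of each adenosine and cytidine against its distance from the 5′ end, 1 panel for each library. Open triangles at the bottom are values of 0, crosses at the top are nucleotides without a value, and the dashed line is the strong level of 0.240. The same tall peaks recur in all 3 panels, the tallest at nt 170, and the first 50 nt stay below the line.

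In cells given DMSO the core was mostly quiet, with a few very high signals. The median signal was 0.086, with 0.107 on A and 0.061 on C. Cycloheximide gave medians of 0.110 on A and 0.064 on C, and RiboBright 0.117 and 0.071. Strong positions made up 46 of 222 in DMSO (20.7%), 44 of 222 in cycloheximide (19.8%) and 46 of 216 in RiboBright (21.3%). In the rest of 28S rRNA the shares were 25.5%, 24.9% and 25.5%, and in the neighbouring stretch C436 to G1311, which holds expansion segment 7, they were 32.8%, 31.1% and 39.8%. These differences between stretches were not tested.

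The strong set was shared between the libraries. Of 216 A and C with a value in every library, 39 were strong in all 3 and 50 in at least 1, so 78% of the strong positions recurred throughout. The 39 comprised 21 C and 18 A. The 15 highest positions of DMSO were also the 15 highest of cycloheximide, and 12 of them were among the 15 highest of RiboBright. Those 15 carried 47.7% of the summed DMSO signal of the core.

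The highest peaks were cytidines, 10 of the 15. C170 gave 5.396 with DMSO, 5.493 with cycloheximide and 5.737 with RiboBright, and was the 8th most reactive A or C of all 28S rRNA in DMSO. After scaling, its highest value was 1.04 times its lowest, so the highest signal of the core was nearly level across treatments. C92, next in rank, had 3.449, 3.156 and 2.896 in the same order. C340 had 2.446, 2.749 and 2.615, and C72 had 1.665, 1.397 and 1.359. C92 and C72 thus stood lower in both treated libraries than in DMSO, by log2 ratios of -0.21 and -0.33 under cycloheximide and -0.38 and -0.42 under RiboBright. C340 moved less, with ratios of 0.09 and -0.04.

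C309 gave 1.567 with DMSO, 1.704 with cycloheximide and 1.942 with RiboBright. C216 had 1.440, 1.425 and 1.606, and C264 had 1.384, 1.291 and 1.390. At each of these peaks RiboBright had the highest deposited signal. After scaling they did not share a treatment order, and in each the highest scaled value was within 1.13 times the lowest. C205 (1.102, 0.902 and 1.181) was lowest in cycloheximide. C141 (1.113, 1.329 and 0.988) was highest there, with a log2 ratio of 0.17 against DMSO and -0.30 for RiboBright.

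Among adenosines the highest DMSO signals were at A427 (1.187), A383 (1.063), A410 (1.060), A377 (1.052) and A84 (0.986). A377, in a run of 3 A, had 1.041 in cycloheximide and 1.025 in RiboBright. A84 had 1.041 and 0.896. Both thus differed little across the treatments, whereas A383, A410 and A427 differed from DMSO by more in RiboBright than in cycloheximide, as described below. Over all 46 strong positions of DMSO, the highest scaled value was a median of 1.29 times the lowest, and 36 stayed under 1.5 times. It reached 2 times at A163 (2.45) and A408 (2.29).

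**Figure D2:**
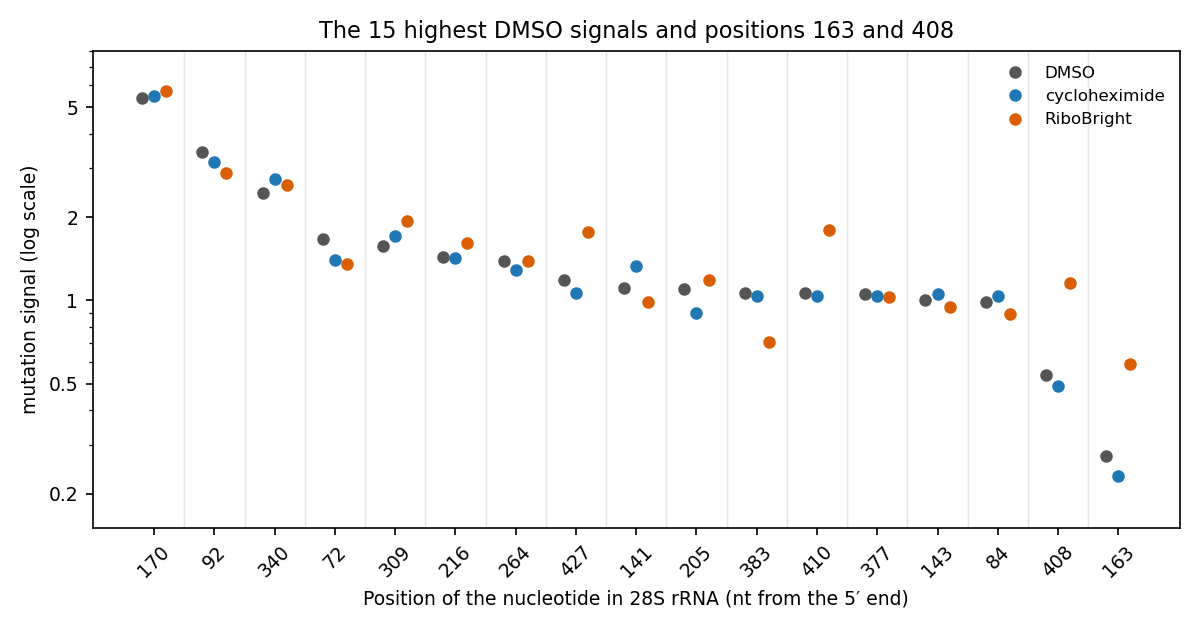
Deposited mutation signal (log scale) of the 15 highest DMSO positions and of A163 and A408, 1 point for each library, ordered by DMSO. The libraries lie close together at nt 170 (5.396 to 5.737), while RiboBright stands above the others at nt 427, 410, 408 and 163 and below them at nt 383.

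The first 25 nt, which include the arm that pairs with the RNA5-8SN rRNA, had low signals throughout. Values ranged from 0 to 0.227 in DMSO over 10 nucleotides, from 0 to 0.067 in cycloheximide over 10, and from 0 to 0.065 in RiboBright over 7. None was strong in any library. A15 had the highest DMSO signal, at 0.227, against 0.067 in cycloheximide and 0 in RiboBright, and C18 had 0.104, 0.030 and 0. The log2 ratio of cycloheximide to DMSO had a median of -1.26 in the arm, with 8 of 10 nucleotides lower, and that of RiboBright to DMSO had a median of -0.33, with 5 of 7 lower. Zeros numbered 2, 3 and 3 here and 4 to 7 of the 14 A and C had no value, and the treated signals behind the lowest ratios were at or near 0. The part of the zeros and gaps in the result was not tested. In nt 26 to 50, which had a value in every library, the medians were -0.16 and -0.42, each with 9 of 13 nucleotides lower.

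Of the 46 strong positions in DMSO, 13 stood alone, with the nearest measured A or C on both sides below the strong level, among them 4 of the 15 highest. The 50-nt windows from 51 to 200 had 18, 9 and 6 A and 11, 19 and 18 C. They held 3, 5 and 5 strong positions in DMSO, and all of these but A84 and A163 were cytidines. The GC-rich stretch held 4 of them. C133 gave 0.714 with DMSO, 0.772 with cycloheximide and 0.621 with RiboBright, C136 had 0.626, 0.585 and 0.600, and C143 had 1.002, 1.054 and 0.946. With C141, these lay beside cytidines of the same stretch at 0.007 to 0.085 in DMSO, namely C123 to C131. The window 301 to 350 had 9 strong positions, 6 of them between A338 and A347. A338 had 0.835, 0.683 and 1.020, C339 had 0.483, 0.523 and 0.667, and C345 had 0.593, 0.463 and 0.857. A338 and C345 were thus lowest in cycloheximide and highest in RiboBright.

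The window 351 to 400, with 22 A and 6 C, had the most, with 10 strong positions in DMSO, of which 9 were adenosines. It includes A398 and A400, which carry natural 2′-O-methyl groups on the ribose, a modification placed by small nucleolar RNAs that leaves the Watson-Crick face free. A398 gave 0.556 with DMSO, 0.653 with cycloheximide and 0.756 with RiboBright. A400 had 0.144, 0.131 and 0.186 and was strong in no library. These 2 methylated adenosines therefore differed in level from each other, and neither ratio to DMSO reached 1.5-fold.

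A fold predicted from the sequence alone was set against the signals. RNAfold paired 272 nucleotides and left 163 unpaired, without the RNA5-8SN rRNA or proteins. Cytidines predicted unpaired had a median DMSO signal of 0.234 (n = 23) and those predicted paired 0.054 (n = 93), and 47.8% and 12.9% of them were strong. Adenosines did not separate, with medians of 0.106 unpaired (n = 77) and 0.113 paired (n = 29). The area under the curve, the share of unpaired and paired nucleotide pairs in which the unpaired one was higher, was 0.794 for C and 0.459 for A in DMSO, where 0.5 is no separation. It was 0.795 and 0.503 in cycloheximide, and 0.763 and 0.479 in RiboBright. Of the 15 highest DMSO positions, 7 were predicted unpaired. The predicted partners of C340 and A410, both among these 15, were nt 24 and nt 8. Those of A344 and C345, also strong, were nt 20 and nt 19. These partners lie at the start of the rRNA, in the stretch that includes the arm pairing with the RNA5-8SN rRNA. The fold left out any pairing with that rRNA, at the start or elsewhere in the core. The effect on the predicted labels was not tested. A fold limited to spans of 150 nt excludes such pairs. Its area over A and C together was 0.692 in DMSO, against 0.682 without the limit. C141 and C216 were predicted paired almost always, with an unpaired probability of 0.000565 and 0.00338, yet had DMSO signals of 1.113 and 1.440 that recurred in the other libraries. Nucleotides are not independent replicates, and no p-value is given for this comparison.

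**Figure D3:**
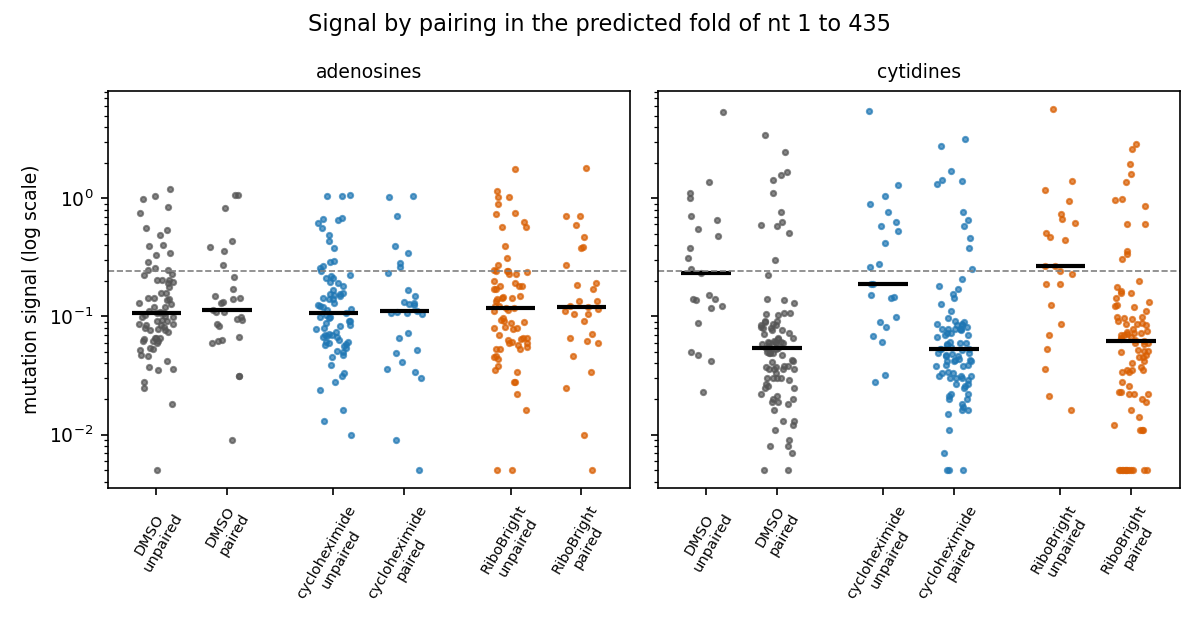
Mutation signal (log scale) of adenosines and cytidines, by library and by pairing in the predicted fold, with the median as a bar, the strong level as a dashed line and zeros drawn at 0.005. Cytidine medians differ between unpaired and paired (0.234 and 0.054 in DMSO), and adenosine medians do not (0.106 and 0.113).

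The neighbouring base went with the cytidine signal. In DMSO, cytidines outside a run of C had a median of 0.105 (n = 46), against 0.048 for the last C of a run (n = 26) and 0.038 for those before the last (n = 44). These medians fell in the same order in the rest of 28S rRNA, at 0.127 (n = 529), 0.064 (n = 288) and 0.051 (n = 517). Neighbouring base and predicted pairing were not separated. Cytidines followed by G were strong in 30% of cases (12 of 40), against 13.6% of those followed by C (6 of 44). The rest of 28S rRNA gave 35% (168 of 480) and 15.1% (78 of 517). Among adenosines, 33.3% of the last A of a run were strong (9 of 27) and 16.7% of those before it (6 of 36), against 28.9% (39 of 135) and 22.5% (40 of 178) in the rest of 28S rRNA. In DMSO the last A was above the one before it in 19 of 27 runs, in cycloheximide in 15 of 27, and in RiboBright in 14 of 26. The rest of 28S rRNA gave 92 of 135, 85 of 135 and 80 of 130 in the same order.

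Between cycloheximide and DMSO no position of the core was called, where a call needs a change of at least 2-fold and a strong scaled signal in one of the libraries. This was 0 of 50 strong positions in either direction, against 2.72% called higher and 1.87% called lower over all 28S rRNA. Of the 50, 48 lay within 1.5-fold (96%), against 88.3% in the rest of 28S rRNA. The 2 exceptions were lower. C210 gave 0.250 with DMSO and 0.144 with cycloheximide (log2 ratio -0.83), and RiboBright gave 0.265. A426 gave 0.333 with DMSO, 0.212 with cycloheximide and 0.193 with RiboBright, with ratios of -0.70 and -0.88, so this adenosine was lower in both treated libraries.

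The largest differences in scaled signal under cycloheximide were at C92 (-0.465), C72 (-0.344), C205 (-0.249), C170 (-0.203) and A338 (-0.189) among the lower ones. Among the higher ones they were at C340 (0.153), C141 (0.144), A347 (0.131), A227 (0.092) and A434 (0.078). At C170 the deposited signal was higher in cycloheximide (5.493) than in DMSO (5.396), so its place among the lower ones came from the scaling. A347 gave 0.401 with DMSO, 0.563 with cycloheximide and 0.627 with RiboBright, so it was higher in both treated libraries. A227 had 0.492, 0.618 and 0.567. A434, with 0.130 in DMSO and 0.220 in cycloheximide, was below the strong level and 1.56-fold higher, and the other 9 were within 1.5-fold. The median log2 ratio over the 222 compared positions was -0.06, against -0.01 over all 28S rRNA.

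RiboBright against DMSO gave 0 calls among 49 strong positions in either direction, against 2.61% called higher and 2.61% called lower over all 28S rRNA. Of the 49, 43 lay within 1.5-fold (87.8%), against 81.3% in the rest. The median log2 ratio over 216 positions was -0.04, against -0.08 over all 28S rRNA, and turned to 0.08 without scaling. The 6 positions beyond 1.5-fold were A163, A408 and A410, which were higher, and A383, C180 and A426, which were lower. C180 gave 0.510 with DMSO, 0.378 with cycloheximide and 0.339 with RiboBright, with ratios of -0.50 and -0.70. A383 had 1.063, 1.038 and 0.705, a log2 ratio of -0.72 in RiboBright and -0.11 in cycloheximide.

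The strong adenosines of the core split evenly between RiboBright and DMSO, 12 above and 12 below, with log2 ratios from -0.88 to 0.97, and in the rest of 28S rRNA 99 were above and 104 below. The following 4 were picked for their high RiboBright values. A408 gave 0.535 with DMSO, 0.488 with cycloheximide and 1.156 with RiboBright, a log2 ratio to DMSO of 0.97, just under 2-fold. A410 had 1.060, 1.034 and 1.791, with a ratio of 0.62. A427 had 1.187, 1.062 and 1.771, with a ratio of 0.44. A163 had 0.274, 0.232 and 0.589, with a ratio of 0.95. At each of them DMSO and cycloheximide lay nearer to each other than to RiboBright. In scaled signal A410 (0.574), A408 (0.520), A427 (0.429), A163 (0.263) and C309 (0.205) had the largest differences above DMSO. C92 (-0.807), C72 (-0.425), A383 (-0.420), A15 (-0.227) and C141 (-0.212) had the largest below it, all cytidines but A383 and A15. With no scaling, A163 and A408 passed 2-fold, with ratios of 1.08 and 1.10, and with A and C scaled separately they had 1.00 and 1.02, so the rule's edge ran through these positions.

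A408, A410 and A427 lie next to a gap in the RiboBright library. RiboBright had no value at A433 to A435, nor at any of the 48 A and C of the next 100 nt, all of which DMSO and cycloheximide list. Whether that gap and the higher signals beside it are linked was not tested. Near A163, RiboBright was at 0 at A158, C168, C173 and C174, where DMSO had 0.036, 0.064, 0.036 and 0. Cycloheximide had 0.016, 0, 0.027 and 0.007 there, so C168 was also at 0 in that library. Of the other adenosines after A400 with a RiboBright value, A407 (0.25), A418 (0.07), A419 (0.56), A429 (0.62) and A402 (0.01) had log2 ratios to DMSO above 0, and A420 (-0.49) and A426 (-0.88) below it. A402 had 0.009, 0.009 and 0.010, the lowest signal of the last window in each library.

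Directly compared, 2 positions were called between RiboBright and cycloheximide, A163 and A408, both higher in RiboBright. This was 4.17% of 48 strong positions, near the 3.91% called higher over all 28S rRNA. No position was called lower, against 1.85%. The log2 ratios were 1.25 at A163 and 1.17 at A408, from scaled signals of 0.219 and 0.537 and of 0.461 and 1.055. These comparisons share libraries: the RiboBright values are those compared with DMSO above. A427, A410 and C345 had ratios of 0.68, 0.73 and 0.82, and C210 and C172 had 0.78 and 0.61. With A163 and A408 this made 7 of 48 strong positions at least 1.5-fold higher in RiboBright, against 11.7% over all 28S rRNA. A383 alone was as far lower, at -0.60, against 6.38%. The largest other differences in scaled signal below cycloheximide were at C141 (-0.355), C92 (-0.342), C340 (-0.213) and A84 (-0.167), each within 1.5-fold.

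**Figure D4:**
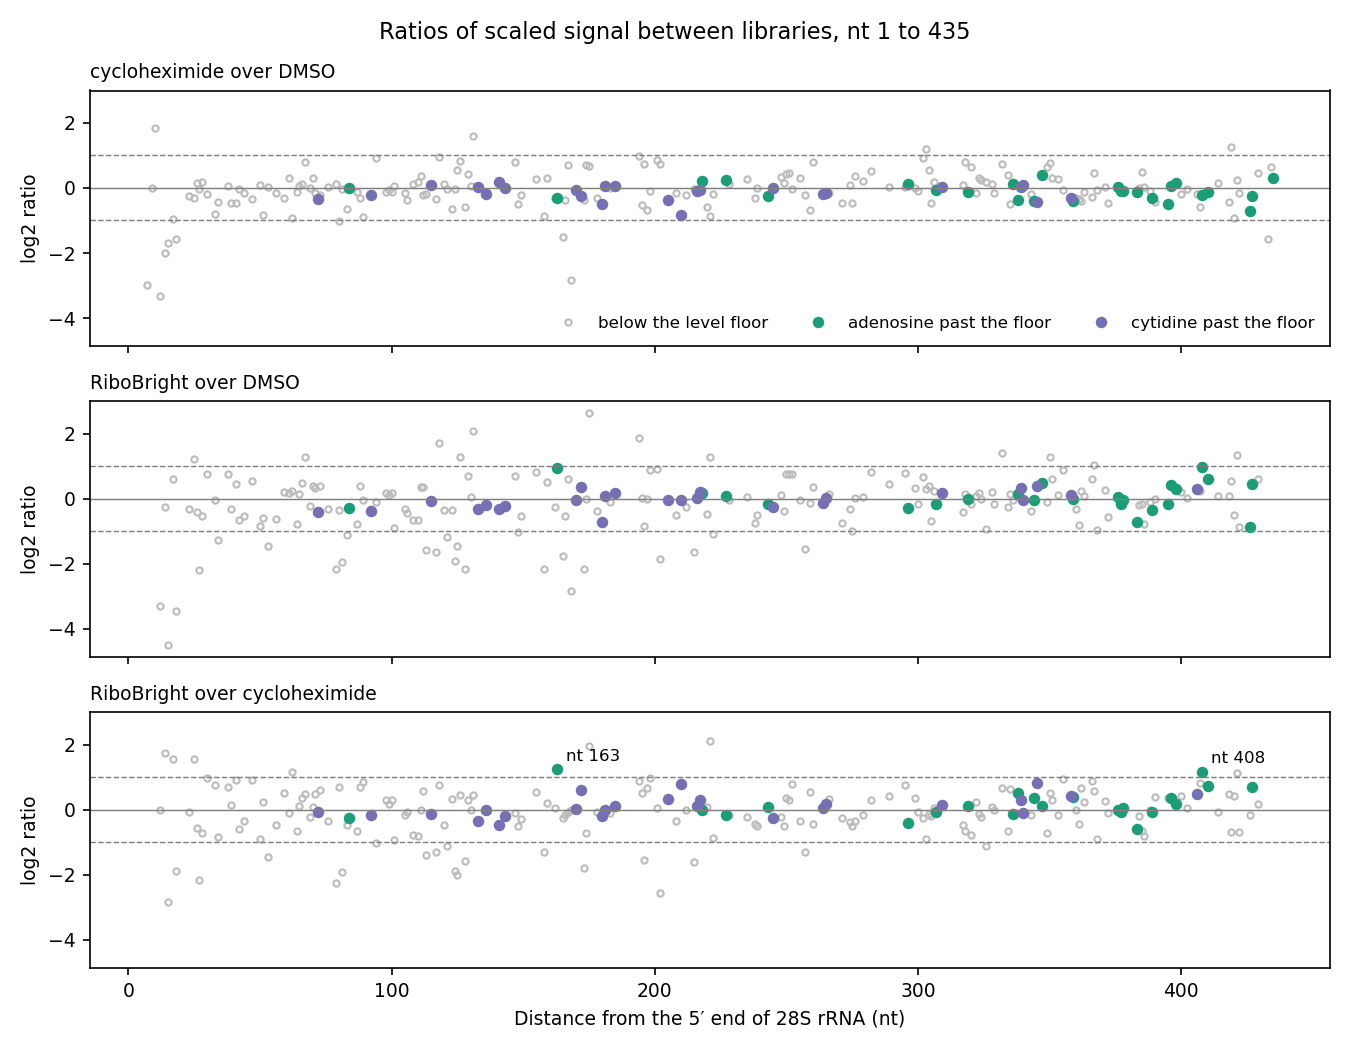
Log2 ratio of scaled signals against distance from the 5′ end, 1 panel for each pair of libraries. Filled points are strong in one of the libraries, open points are below that level, and dashed lines mark 2-fold. The filled points lie within 2-fold except A163 and A408 in the lowest panel, and the open points reach a log2 ratio of -4.51, at A15 for RiboBright over DMSO.

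By window, the lowest median ratio to DMSO was in the first 50 nt for both compounds, and the highest was in nt 301 to 350 for cycloheximide and in the last 35 nt for RiboBright. In the first 50 nt the median log2 ratio to DMSO was -0.32 for cycloheximide (17 of 23 lower) and -0.37 for RiboBright (14 of 20 lower), with no strong position. In the last 35 nt it was -0.17 for cycloheximide (11 of 17 lower) and 0.27 for RiboBright (11 of 14 higher), and RiboBright against cycloheximide gave 0.46 (10 of 14 higher). RiboBright was also low at nt 101 to 150, with -0.34 and 20 of 28 lower, where 4 of its values were 0 and DMSO and cycloheximide had none. Nt 301 to 350 had a cycloheximide median of 0.13, with 20 of 30 higher, and RiboBright had 0.12 there. Under the 4 other scalings these medians to DMSO kept their signs.

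**Figure D5:**
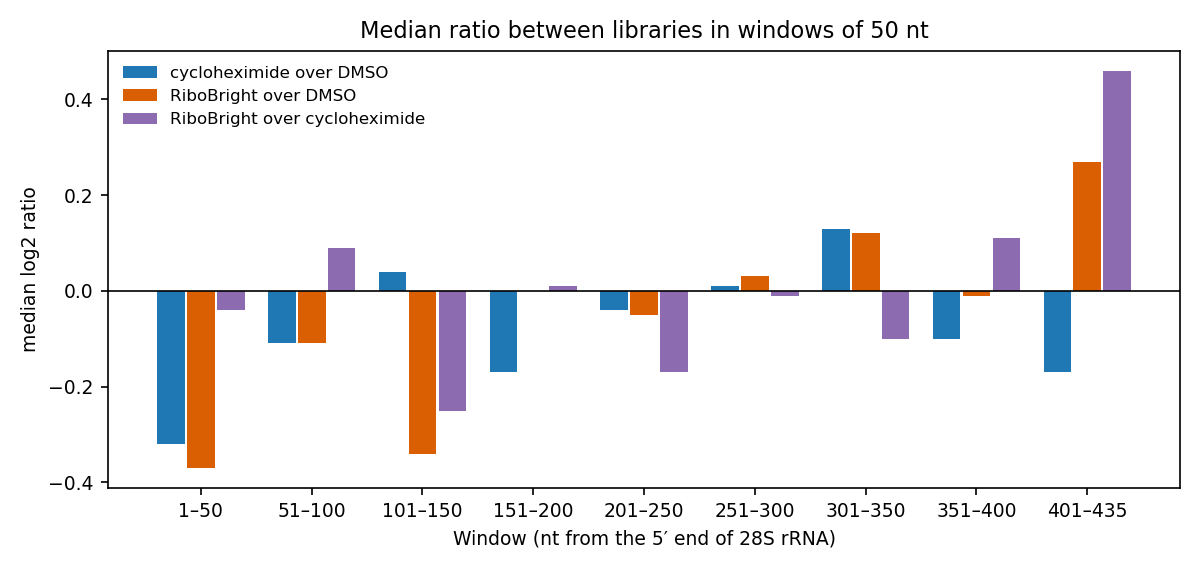
Median log2 ratio in windows of 50 nt (the last has 35 nt), 1 bar for each pair of libraries. Both compounds lie below DMSO in nt 1 to 50 (-0.32 and -0.37), and in the last 35 nt RiboBright lies above DMSO (0.27) and cycloheximide below it (-0.17).

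The spread of ratios between libraries was smaller at strong positions than over all compared ones. The robust SD of the log2 ratio was 0.230 past the strong level and 0.375 overall for cycloheximide against DMSO, and 0.299 and 0.572 for RiboBright against DMSO. In the rest of 28S rRNA the values past that level were 0.233 and 0.391. Across the core, log2 signals above 0 had a Pearson correlation of 0.933 between cycloheximide and DMSO (n = 216), 0.888 between RiboBright and DMSO (n = 201) and 0.904 between RiboBright and cycloheximide (n = 201). Correlations in the rest of 28S rRNA were close to these, at 0.935 (n = 1876), 0.899 (n = 1520) and 0.903 (n = 1520). The positions share each library and its scaling, so these values are descriptions. In A1312 to A1850, where every A and C had a value, all 65 strong positions lay within 1.5-fold of DMSO under cycloheximide and 61 of 66 under RiboBright. In C436 to G1311, where RiboBright listed 88 of the A and C, the shares were 82 of 123 and 19 of 40.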

How the data were processed

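Dimethyl sulfate mutational profiling was made by the submitters from TRIzol-extracted RNA copied by TGIRT-III, per the labels' protocols. The authors deposited a mutation signal per nucleotide, with values on A and C. The submitters' processing notes list Bowtie2, cutadapt and hg38. How mutations were counted, normalized, filtered on coverage or corrected for background is not given in the sources used here. In the deposited signal, the mean of values ranked 2 to 10% from the top was between 0.987 and 1.005 for each base and library, so a change common to all nucleotides would not show. An untreated library, without the reagent, was not analysed here.

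Treated libraries were brought to the DMSO level with the ratio of medians over all nonzero A and C of 28S rRNA (factors 0.945 for cycloheximide and 0.912 for RiboBright, log2 shifts of -0.08 and -0.13). Ratios are log2 of scaled signal plus 0.0104, 10% of the DMSO median, which makes them too small at low signals. Zeros were kept and missing values left out. The fold came from ViennaRNA 2.7.2. Scripts ran in Python 3.11.15 with pandas 2.3.3 and were checked on simulated data. The planted changes were larger than 2-fold and the simulated noise was smaller than the spread seen here. That check therefore does not show how often the 2-fold rule errs in these data. Named positions are those called in a comparison, the 5 largest differences in each direction, the 15 highest in DMSO, A398 and A400, and the windows of highest and lowest median. Positions beyond 1.5-fold, and others outside this rule, were picked with their values in view. The stretch, rules and regions were chosen with earlier results of these data known.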

Additional observations from a re-analysis of the deposited data

How the results depend on the processing

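With 1 library per treatment and no read counts, the alternatives show how values move with the processing and not how they would repeat. No paired analysis was possible because each treatment has 1 library. Medians of the log2 ratio counted as moved beyond 0.1, counts beyond 1.5 times and areas under the curve beyond 0.05. Of 30 medians recomputed, 29 stayed within that range, and the RiboBright median against DMSO turned to 0.08 without scaling. For cycloheximide against DMSO, lower calls went from 0 to 4 with the floor at the DMSO median and to 2 at 1.5-fold. For RiboBright against DMSO, higher calls went from 0 to 2 without scaling, 1 with scaling by the 90th percentile (A408), 2 with A and C scaled separately, 4 with the floor at the DMSO median and 3 at 1.5-fold. Lower calls went from 0 to 4 with that floor and to 3 at 1.5-fold. For RiboBright against cycloheximide, the 2 higher calls became 5 with the floor at the DMSO median, 1 with the floor at the 90th percentile (A408), 7 at 1.5-fold, 0 at 3-fold, 1 over nt 1 to 400 and 1 without positions within 25 nt of a missing value (A163 in both), an alternative added after the data were seen. The lower calls went from 0 to 2 with the lower floor and to 1 at 1.5-fold. The area under the curve was 0.682 in DMSO, 0.680 in cycloheximide and 0.650 in RiboBright over A and C together. It was 0.459, 0.503 and 0.479 on A alone, and 0.794, 0.795 and 0.763 on C alone.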
